A study of Mus musculus with 11 samples.

Results

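The 6 Trex2 knockout libraries of a study of imiquimod-treated mouse skin were examined for how gene levels varied from mouse to mouse within that genotype. They are replicates 7 to 12 of 11 libraries, and the genes described are the 13155 of 38406 in the table whose mean normalized count over these 6 libraries was at least 10. A normalized count is a read count divided by a size factor for its library. The mice were female C57BL/6 animals of 8 to 10 weeks, homozygous for loss of Trex2, and each received 125 mg of a 5% imiquimod cream on the back on each of 4 days. Whole back skin was pulverized 24 hours after the last dose, and mRNA selected from its total RNA was sequenced. The other 5 libraries, replicates 2 to 6, come from wild-type mice given the same cream, and skin without imiquimod is not analysed here. No gene is compared between the genotypes. The wild-type libraries serve only to set the size of the spread, and to ask whether genes move together in mice that were not used to find the relation.

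Trex2 encodes a DNA exonuclease of keratinocytes. Imiquimod, a ligand of the innate receptor TLR7, produces an inflammation in which keratinocytes proliferate, terminal differentiation is disturbed and neutrophils enter the skin. Keratinocytes of the basal layer make the keratin pair Krt5 and Krt14. Cells that leave that layer change to Krt1 and Krt10, and later make loricrin, filaggrin and the late cornified envelope proteins that form the dead outer sheath. Stressed or wounded epidermis makes Krt6, Krt16 and Krt17 instead. Whole skin also holds dermis, vessels, fat and a sheet of skeletal muscle, so the level of a gene in such a library depends both on how many cells make it and on how much each makes. Fewer cells of a type and less RNA per cell cannot be told apart here.

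Trex2 stood at 1.74, 1.39, 0.794, 1.58, 2.14 and 3.47 normalized counts in replicates 7 to 12, at or near a handful of reads in each. The libraries held 3125366 to 15557862 counted reads, and 3 reads corresponded to 1.04 to 5.21 normalized counts. The table lists Xist at 411 to 971 and Ddx3y, a gene of the Y chromosome, at 0 in all 6, as the label of female mice has it. The defining transcripts of skin were present in every library, with Krt14 at 39777 or more and Col1a1 at 6276 or more. Replicates 9 and 12 stood apart from the other 4 libraries, as set out below, and the slopes of most lists described are therefore also given without them. The labels name no batch, litter or date for any library.

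The promoters of 6 genes on which the results turn are shown here, because 3 of them (Krt10, Flg and Lor) belong to genes of the differentiated epidermis, 1 (Krt14) to the basal layer, and 2 (Ccl3 and Cxcl3) to chemokines that moved the other way. Each run gives the 120 bases before the gene start in RefSeq on GRCm38.p6, 5′ to 3′ on the strand of the gene. Capitals mark TATAAA, the core of a TATA box, where it lies in the last 60 bases, and TGANTCA, the core of a site for AP-1 factors, on either strand.
Lor, chr3:92083143-92083262, minus strand: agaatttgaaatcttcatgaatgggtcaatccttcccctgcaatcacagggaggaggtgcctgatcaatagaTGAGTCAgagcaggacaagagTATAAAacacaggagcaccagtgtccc
Flg, chr3:93273426-93273545, plus strand: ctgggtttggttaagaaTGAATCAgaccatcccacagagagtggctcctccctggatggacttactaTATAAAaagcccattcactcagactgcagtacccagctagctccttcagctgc
Krt10, chr11:99389365-99389484, minus strand: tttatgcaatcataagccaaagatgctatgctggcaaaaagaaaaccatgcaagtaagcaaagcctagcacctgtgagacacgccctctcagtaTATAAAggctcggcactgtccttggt
Krt14, chr11:100206031-100206150, minus strand: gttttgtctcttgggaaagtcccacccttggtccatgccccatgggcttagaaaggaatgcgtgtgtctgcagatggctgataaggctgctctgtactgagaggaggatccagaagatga
Ccl3, chr11:83649379-83649498, minus strand: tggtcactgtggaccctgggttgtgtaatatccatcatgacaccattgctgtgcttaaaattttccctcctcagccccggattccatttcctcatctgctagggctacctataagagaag
Cxcl3, chr5:90785981-90786100, plus strand: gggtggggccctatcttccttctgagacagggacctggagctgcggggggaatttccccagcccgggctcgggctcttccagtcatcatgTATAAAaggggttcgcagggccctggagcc
TATAAA begins 27 bases before the start in Lor, 26 in Krt10, 53 in Flg and 30 in Cxcl3. In Krt14 and Ccl3 these letters are not in the window searched. Lor and Flg also carry TGANTCA within the 120 bases shown.

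The spread between the knockout libraries was first described over all genes. The median SD of log2(normalized count + 1) over the 6 libraries was 0.31, with quartiles of 0.21 and 0.44, and counting error alone would give a median of 0.11. The highest library exceeded the lowest by 1.74-fold for the median gene. In all, 4451 genes (33.8%) spanned at least 2-fold, 672 (5.11%) at least 4-fold and 93 (0.707%) at least 10-fold. The common biological coefficient of variation estimated by edgeR was 0.261. The median SD was 0.24 without replicates 9 and 12.

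By mean normalized count, the 10 protein-coding genes of highest level were keratins, mitochondrial transcripts, Eef1a1 and Fth1. Genes outside these 10, shorter ones among them, were not ranked per kb. Per kb of exon, Krt14 had the highest mean of the 10 protein-coding genes of highest mean count, at 42935 normalized counts, followed by mt-Atp6 at 36121, mt-Nd1 at 26596 and mt-Co1 at 23247. Krt16 stood at 17847 per kb, Krt6a at 15613, Krt6b at 13630 and Krt5 at 13056. Eef1a1, an elongation factor of translation, spanned 1.43-fold, with an SD of 0.19. Among the steadiest members of the gene lists was Tap1, which carries peptides for antigen presentation, at 191 to 223 normalized counts (SD 0.09). Bcam, an adhesion molecule of basal keratinocytes, at 1019 to 1184, and the chaperone gene Hsph1, at 347 to 404, each had an SD of 0.09.

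Leaving aside clone and placeholder names and genes whose mean was under 50, the 10 of largest SD were Krt1, Krt77, Flg, Krt10, Ngp, Sprr2b, Ccl4, Itgb2l, Serpinb12 and Il6. Krt10 stood at 302, 840, 6773, 212, 450 and 3319 normalized counts in replicates 7 to 12, an SD of 1.99 and a 32.0-fold span. Its partner Krt1 stood at 671, 1168, 13576, 400, 446 and 5743. Flg, which encodes the filaggrin that packs keratin in the outermost living cells, stood at 46.8, 134, 1571, 56.4, 68.6 and 549. In these 3 genes replicate 9 was highest and replicate 12 next, and the lower of those 2 libraries exceeded the highest of the other 4 by 3.95-fold for Krt10, 4.92-fold for Krt1 and 4.10-fold for Flg. Among the other 4 libraries Krt10 still spanned 3.97-fold.

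Ngp, a protein of neutrophil granules, stood at 2120, 3605, 331, 1335, 2312 and 123 normalized counts, a 29.4-fold span. Ccl4, a chemokine for monocytes and other leukocytes, stood at 467, 1263, 90.5, 308, 913 and 56.2. The cytokine Il6 stood at 177, 253, 15.1, 74.5, 138 and 17.4. In these genes replicates 9 and 12 were the lowest and replicate 8 the highest. The same library order did not hold for all wide genes. Krt77, a keratin of the eccrine duct and of late epidermis, stood at 17.4, 246, 27.8, 33.1, 129 and 723, low in replicate 9 and high in replicates 8, 11 and 12, and was not called with Lor (limma adjusted p = 0.901).

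**Figure D1:**
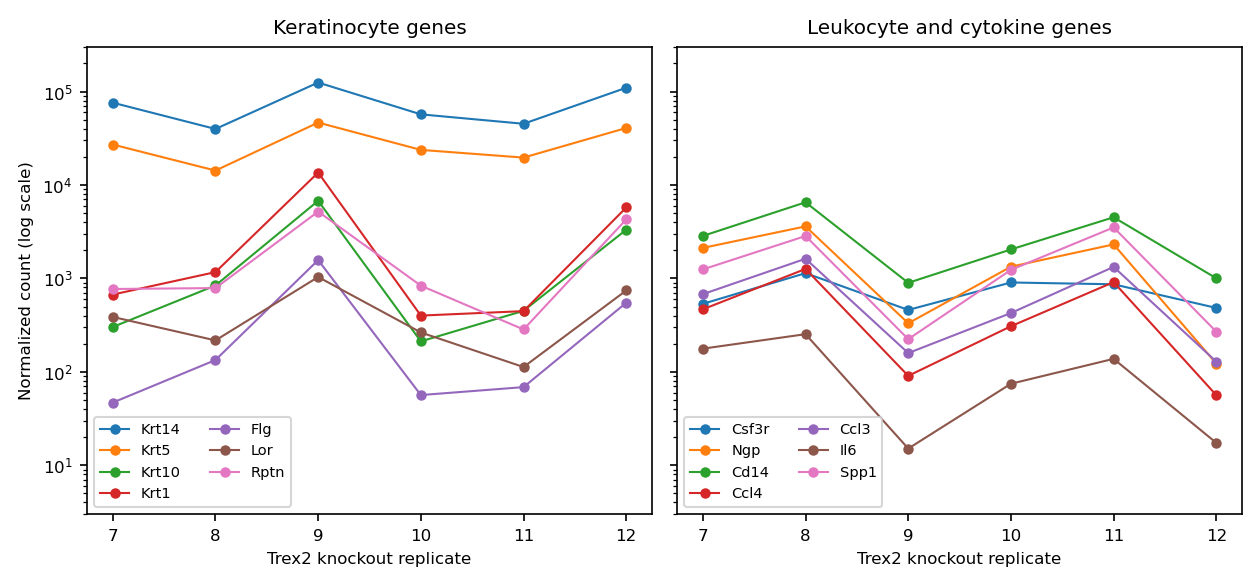
Normalized counts on a log scale (vertical axis) of 7 keratinocyte genes (left) and 7 leukocyte and cytokine genes (right) in Trex2 knockout replicates 7 to 12 (horizontal axis); each point is 1 library and lines only join the points of a gene. The differentiation genes peak in replicates 9 and 12, where Ngp, Ccl3, Ccl4, Il6 and Spp1 are lowest.

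Principal components of the 13155 genes placed the libraries along 1 leading direction. The first component held 54.1% of the variance, with coordinates of -4.88, -27.9, 48.2, -13.0, -39.7 and 37.2 in replicates 7 to 12. Replicates 9 and 12 lay at 1 end, replicates 11 and 8 at the other, and replicates 10 and 7 between them. Its coordinate was not called with the log2 of sequencing depth (Pearson r = 0.12, exact permutation p = 0.892, and Spearman rho = -0.14, p = 0.803, n = 6; r = -0.43 without replicates 7 and 12).

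The second component held 24.4% of the variance and followed depth. Its coordinates were -32.9, -10.6, -16.7, 18.1, 12.7 and 29.3, in exactly the order of the libraries' depths. Pearson r with log2 depth was 0.95 (exact permutation p = 0.00278, two-sided, adjusted p = 0.00556 over 2 components, n = 6) and rho was 1.0 (p = 0.00278, the smallest that 720 pairings can give). Without replicates 7 and 12, which lay farthest from the median depth, r was 0.94. No single gene was called with depth by limma, although 1062 rose and 744 fell with it at an unadjusted p of at most 0.05, and edgeR on the reads called 0 in each direction.

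**Figure D2:**
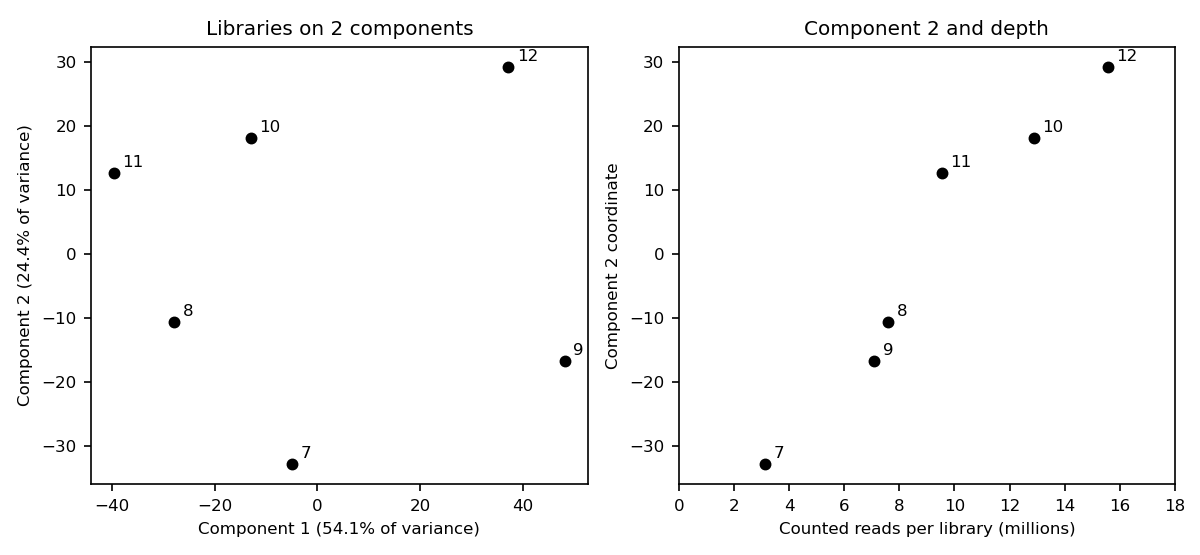
Left, the 6 knockout libraries on component 1 (horizontal) and component 2 (vertical), each point labelled with its replicate number; right, component 2 (vertical) against counted reads per library (horizontal). Replicates 9 and 12 lie together on component 1, and component 2 rises with depth, from the shallowest library (replicate 7) to the deepest (replicate 12).

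Lor, which encodes the cornified envelope protein loricrin, was used as the measure of differentiation against which every other gene was set. Lor stood at 387, 217, 1035, 264, 113 and 743 normalized counts in replicates 7 to 12, a 9.20-fold span, and replicates 9 and 12 were 1.92-fold or more above the other 4. For each gene, limma estimated the log2 change per log2 unit of Lor across the 6 libraries. At a Benjamini-Hochberg adjusted p of at most 0.05, 846 of 13154 genes (6.43%) rose with Lor and 1052 (8.0%) fell with it. The counts of list members called with Lor, given below, are to be read beside these shares. The median slope over all genes was 0.01, and 6934 slopes were positive. Without both replicates 9 and 12, where 4 libraries remain, 0 genes were called in each direction, and no other pair was left out for comparison. At an unadjusted limma p under 0.05, 745 of 13141 genes rose and 703 fell in those 4 libraries. Over the 6 libraries 1898 rose and 2007 fell at that limit. Without replicate 9 alone 137 rose and 34 fell, and without replicate 12 alone 977 rose and 1115 fell. Leaving out replicate 11, the lowest in Lor, gave 320 and 440, and leaving out replicate 8 gave 562 and 612.

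The genes called in the knockout libraries mostly kept their direction in the wild-type mice, which had no part in finding them. Of the 811 rising genes that could be compared, 749 (92.4%) had a positive slope on Lor across the 5 wild-type libraries. Of the 1052 falling genes, 826 (78.5%) had a negative slope there. Over the 12941 tested genes compared, 50.1% of wild-type slopes were positive. This comparison was added after the data were seen, and genes are not independent replicates.

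Terminal differentiation genes rose with Lor as a group. Of 41 tested members other than Lor, 26 were called rising and 0 falling, and 40 slopes were positive, with a median of 0.45 against 0.01 over all genes. The mean level of the list, each gene centred on its own mean, stood at -0.29, -0.29, 0.75, -0.30, -0.82 and 0.96 on the log2 scale, high in replicates 9 and 12 and lowest in replicate 11. The median slope was 0.33 without replicates 9 and 12, and 36 of the 41 slopes were positive.

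Members of that list differed in how far they moved. Rptn, a repetin of the cornified envelope, stood at 770, 788, 5188, 836, 284 and 4278 normalized counts, with a slope of 1.33 ± 0.13 (SE, limma adjusted p = 0.000853). The cross-linking enzyme Tgm3 stood at 1503, 569, 5619, 1482, 626 and 6526 (slope 1.20 ± 0.16, limma adjusted p = 0.0028). Tgm1, a transglutaminase bound to the membrane, stayed between 1385 and 2393 and was not called (slope 0.20 ± 0.08, limma adjusted p = 0.107). Casp14, a protease that acts in filaggrin breakdown, stood at 843, 1036, 3550, 808, 419 and 2971 and was called rising. Corneodesmosin, encoded by Cdsn, which holds corneocytes together, stood at 3991 to 7772 and was not called (limma adjusted p = 0.158). Ivl, the early envelope protein involucrin, stood at 675, 384, 854, 764, 422 and 1236 and was called rising with a slope of 0.44, beside 1.33 for Rptn.

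All 21 late cornified envelope genes were called rising with Lor. The list stood at -0.16, -0.15, 1.37, -0.58, -1.26 and 0.78 on the centred log2 scale, a 6.21-fold span from replicate 11 to replicate 9. Lce1c had the steepest slope of the 21, at 144, 119, 577, 81.2, 23 and 321 normalized counts (slope 1.32 ± 0.12, limma adjusted p = 0.000718). Lce3d had the smallest spread, at 745 to 1905 normalized counts and a slope of 0.36. Per kb of exon, Lce3b, Lce3c and Lce3d had mean levels of 2056, 2398 and 2555 normalized counts and Lce3a, Lce3e and Lce3f of 489, 611 and 648, while the Lce1 genes ranged from 41.1 for Lce1j to 475 for Lce1f. Without replicates 9 and 12, 20 of the 21 slopes remained positive and the list spanned 2.16-fold, with a median slope of 0.61. The Lce genes are close copies of each other, and how reads shared between copies were counted is not given in the sources used here.

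The late cornified envelope genes are part of the epidermal differentiation complex, a cluster of genes on chromosome 3 that spans chr3:90511034-93564643 on GRCm38 from S100a1 to S100a10. Of its 58 tested genes, Lor among them, 38 were called rising with Lor and 1 falling, beside 6.43% and 8.0% of all genes. Of the 58, 48 had a positive slope. The median SD of the 58 was 0.74, against 0.31 for all genes. Among the S100 genes at the ends of the cluster, S100a14 and S100a16 rose, and the others tested were not called. S100a8, a calcium-binding protein of neutrophils and inflamed keratinocytes, stood at 13860, 29880, 16025, 10967, 15103 and 6217 and was not called (slope -0.25, limma adjusted p = 0.441).

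Sprr3, a small proline-rich gene of the same complex, moved against its neighbours. It stood at 10.4, 39.5, 0, 11.4, 46.1 and 0.347 normalized counts in replicates 7 to 12, high in replicates 8 and 11 and at 0 or 1 read in replicates 9 and 12 (slope -1.94 ± 0.24, limma adjusted p = 0.00236). Sprr2b, of the same family, stood at 38.2, 62.4, 429, 16.6, 11.3 and 61.1, highest in replicate 9 (slope 1.27 ± 0.29, limma adjusted p = 0.0202). Sprr1b, at 11042 to 22754, was also called rising, with a slope of 0.33.

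**Figure D3:**
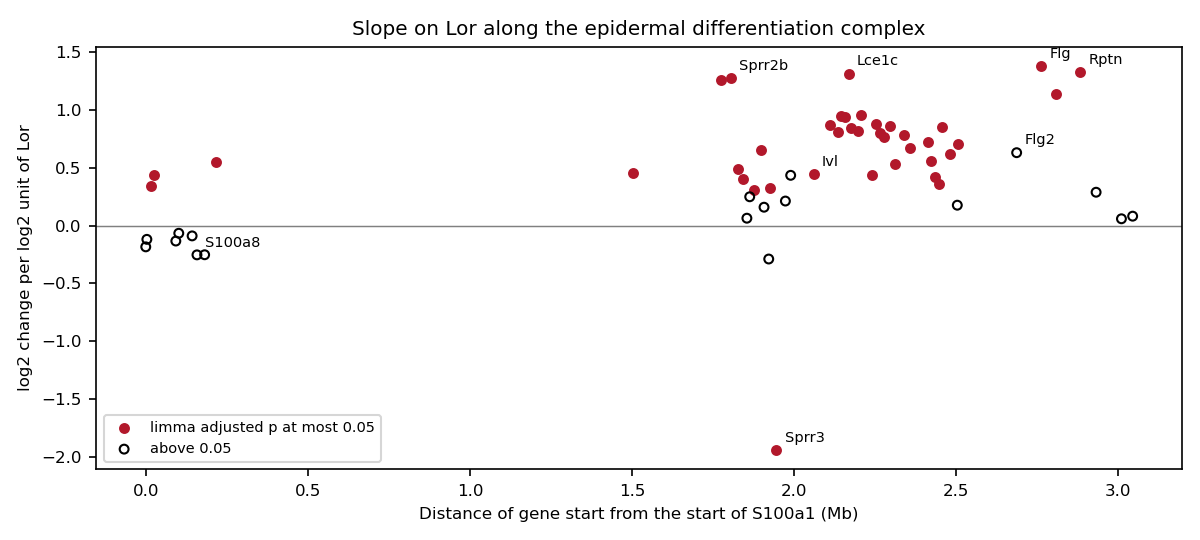
Slope on Lor, as log2 change per log2 unit (vertical axis), of each tested gene of the epidermal differentiation complex other than Lor, by distance of its start from S100a1 in Mb (horizontal axis); filled points passed a limma adjusted p of 0.05 and open points did not. The Lce genes lie above 0 throughout, Sprr3 is the lowest point at -1.94, and S100a8 at -0.25 is not called.

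Krt5 and Krt14 of the basal layer and Krt6a, Krt6b, Krt16 and Krt17 of stressed epidermis rose with Lor too. They spanned 2.83-fold to 3.95-fold, against 9.20-fold for Lor. Krt14 stood at 76026, 39777, 124969, 57039, 45210 and 109862 normalized counts and Krt5 at 27101, 14271, 46583, 23753, 19645 and 40754. The 2 keratins had the same library order (r = 0.98, exact permutation p = 0.00278, rho = 1.0, adjusted p = 0.0148 over 16 pairs, n = 6; r = 0.99 without replicates 8 and 9). Krt14 and Lor also passed the threshold (r = 0.94, exact permutation p = 0.0111, adjusted p = 0.0444, n = 6), and rho was 0.94 (exact permutation p = 0.0167, adjusted p = 0.0667). Their r was 0.74 without replicates 9 and 12. Krt10 and Lor did not pass (r = 0.76, exact permutation p = 0.0944, adjusted p = 0.168, rho = 0.54, p = 0.297, n = 6), and r was -0.40 without replicates 9 and 12.

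The ratios of the stress keratins Krt16 and Krt6a to Krt14 varied little between libraries. Ratios of the suprabasal keratins, Krt10 to Krt14 and Krt1 to Krt5, varied widely. Those of Krt6b and Krt17 to Krt14 were not calculated. Krt16 amounted to 34.2% to 41.2% of the count of Krt14 and Krt6a to 43.4% to 56.1%. Krt10 amounted to 0.397%, 2.11%, 5.42%, 0.371%, 0.994% and 3.02% of Krt14 in replicates 7 to 12. Krt1 amounted to 2.48%, 8.18%, 29.1%, 1.68%, 2.27% and 14.1% of Krt5. Replicates 9 and 12 thus carried the largest share of suprabasal keratin, and replicate 8 came next in both ratios. Krt14 and Krt5, by which the counts were divided, were lowest in replicate 8, which raises its ratios. The counts of Krt10 and Krt1 themselves also came next there after replicates 9 and 12. These ratios compare counts of genes of different length, so only their change between libraries is informative.

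The list of basal genes was divided. Of 17 tested members 5 were called rising with Lor (Krt5, Krt14, Krt15, Cdh3 and Postn) and 0 falling, beside 6.43% and 8.0% of all genes. Postn, which encodes a secreted matrix protein, was counted with this list and not with that of dermal matrix. The genes of the attachment to the basement membrane were not called, among them Itga6 at 1507 to 3802 normalized counts, Itgb4 at 1239 to 2648 and the laminin gene Lamb3 at 463 to 1164. Krt15, a keratin of resting basal cells and of the hair follicle bulge, stood at 65.9, 114, 302, 33.9, 31.1 and 433, a 13.9-fold span (slope 1.13 ± 0.24, limma adjusted p = 0.0153). Over 4 libraries without replicates 9 and 12 the median slope of the list was 0.02.

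The list of stress keratins and antimicrobial genes held members that moved in opposite directions. Of 20 tested members 6 rose with Lor and 4 fell. Krt6a, Krt6b, Krt16, Krt17, the cysteine protease inhibitor Stfa1 and the cytokine Tslp rose. The siderophore binder Lcn2, the cytokine Il24, Tgm2 and the growth factor Hbegf fell. Krt17 stood at 11990, 6626, 20246, 8854, 5129 and 15359 (slope 0.63 ± 0.08, limma adjusted p = 0.00247). Lcn2 stood at 13029, 18939, 4033, 9641, 13359 and 2577 (slope -0.78 ± 0.19, limma adjusted p = 0.0268). The median slope of the list was -0.01, and 0.14 without replicates 9 and 12. Krt6a and S100a8 did not pass as a pair (r = -0.69, exact permutation p = 0.111, adjusted p = 0.178, rho = -0.60, p = 0.242, n = 6, and r = -0.75 without replicates 9 and 12).

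Genes of sterol and epidermal lipid synthesis, which supplies the barrier with cholesterol and ceramides, were called almost throughout. Of 26 tested members 22 rose with Lor, 0 fell and all 26 slopes were positive, with a median of 0.49. Fdps, which makes farnesyl diphosphate, stood at 1124, 543, 1679, 799, 418 and 1510 normalized counts (slope 0.67 ± 0.07, limma adjusted p = 0.00149). Hmgcs1, an early enzyme of the pathway, stood at 1416, 926, 2362, 1398, 848 and 2978. Replicates 9 and 12 were highest in both, and replicates 8 and 11 lowest. Without replicates 9 and 12 all 26 slopes remained positive, with a median of 0.46, and in the wild-type libraries all 26 were positive as well, with a median of 0.28. The ceramide glucosyltransferase Ugcg, at 856 to 1223, was among the 4 members not called.

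Cell cycle genes followed with a smaller span. All 30 tested members had positive slopes, with a median of 0.25, and 10 were called rising and 0 falling. Top2a, a topoisomerase of dividing cells, stood at 673, 541, 1030, 869, 568 and 1143 normalized counts (slope 0.32 ± 0.09, limma adjusted p = 0.0384). Mki67 stood at 531, 428, 1077, 772, 599 and 1019 and was not called with Lor (limma adjusted p = 0.0851). The pair of Mki67 and Top2a had r = 0.94 (exact permutation p = 0.0167, adjusted p = 0.0533, rho = 0.89, p = 0.0333, n = 6; r = 0.92 without replicates 8 and 9). Without replicates 9 and 12 the median was 0.18 and 26 slopes were positive. In the wild-type libraries 14 of the 30 slopes on Lor were positive. Whether this differs from the knockout libraries was not tested.

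Genes of neutrophils moved against Lor. Of 27 tested members 20 were called falling and 2 rising. The list stood at 0.11, 0.97, -0.63, 0.10, 0.52 and -1.07 on the centred log2 scale, highest in replicate 8 and lowest in replicate 12, a 4.12-fold span. Cxcr2, the chemokine receptor of neutrophils, stood at 418, 863, 325, 775, 712 and 345 normalized counts (slope -0.46 ± 0.10, limma adjusted p = 0.0179). Csf3r, the receptor for their growth factor, stood at 534, 1139, 460, 904, 865 and 483 (slope -0.39 ± 0.10, limma adjusted p = 0.0315). The 2 that rose were Stfa3, at 2158, 1832, 7039, 1359, 1599 and 3466, and BC100530. Stfa3 belongs to the stefin A family of protease inhibitors. The median slope without replicates 9 and 12 was -0.31, and 3 of 27 slopes were positive.

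The chemokines and cytokines that draw neutrophils and monocytes also moved against Lor. Of 20 tested members 11 were called falling with Lor and 0 rising. The list stood at 0.75, 0.92, -1.16, -0.05, 0.72 and -1.18, with replicates 9 and 12 lowest. Cxcl3 stood at 436, 1094, 84.9, 310, 760 and 96.8 normalized counts (slope -1.15 ± 0.19, limma adjusted p = 0.00618), and Ccl3 at 678, 1623, 159, 426, 1328 and 128. Csf3, the growth factor of neutrophils, stood at 193, 302, 28.6, 142, 289 and 36.1. Tnf stood at 319, 356, 47.6, 134, 325 and 48.2. Among the 9 members that were not called was Cxcl1, at 307, 385, 89.7, 200, 184 and 65.2 (limma adjusted p = 0.112). In the absence of replicates 9 and 12 the median slope was -0.24, and 9 of 20 slopes were positive.

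The cytokines of the interleukin 17 axis, which are central to imiquimod inflammation, were at the limit of these libraries. Il17a was listed at 0 in 5 libraries and at 1.59 in replicate 9. Il17f and Il22 were at 1.74 or less throughout, below 3 reads in each library. Il23a, a subunit of the cytokine that sustains cells making interleukin 17, stood at 12.1, 9.01, 3.18, 4.34, 9.65 and 4.86, above 3 reads in each library but under the mean of 10 set for the test. Differences in Il17a, Il17f and Il22 were not detectable at this depth.

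Monocyte and macrophage genes fell with Lor in 12 of 26 tested members, and 1 rose, beside 8.0% of all genes falling and 6.43% rising. Cd14, a receptor for bacterial lipopolysaccharide, stood at 2849, 6526, 897, 2042, 4514 and 1003 normalized counts (slope -0.86 ± 0.16, limma adjusted p = 0.0105). Spp1, which is outside that list and encodes the secreted phosphoprotein osteopontin, stood at 1248, 2844, 224, 1234, 3512 and 269, with a slope of -1.37 ± 0.14 (limma adjusted p = 0.000832). The member that rose was Arg1, the enzyme arginase, at 127, 169, 573, 118, 150 and 457 (slope 0.68 ± 0.17, limma adjusted p = 0.0285). Emr1, the macrophage antigen F4/80, stood at 924 to 1255. The median slope was -0.17 and 5 of 26 slopes were positive without replicates 9 and 12. In the wild-type libraries 18 of the 26 slopes were positive, with a median of 0.09 against -0.33 in the knockout libraries, and the difference was not tested.

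Vessel genes fell with Lor. Of 22 tested genes of blood endothelium 14 were called falling, 0 rising, and no slope was positive. Sele, the adhesion molecule that activated endothelium shows to leukocytes, stood at 120, 129, 22.2, 153, 258 and 76.7 normalized counts (slope -0.92 ± 0.15, limma adjusted p = 0.00526). Pecam1, at 701, 954, 422, 784, 1018 and 521, was lowest in replicates 9 and 12 (slope -0.41 ± 0.06, limma adjusted p = 0.0047). Of 6 tested lymphatic genes 3 fell, beside 8.0% of all genes. The lymphatic genes had a median slope of -0.35, or -0.11 without replicates 9 and 12. Without replicates 9 and 12 the median slope of the blood endothelial list was -0.25, and 18.2% of slopes were positive.

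Genes of dermal fibroblasts and matrix fell in 8 of 33 tested members, and 0 rose, beside 8.0% of all genes falling and 6.43% rising. Tnc, an extracellular matrix protein of wounds, stood at 10739, 11980, 5288, 19826, 22772 and 7443 normalized counts (slope -0.64 ± 0.11, limma adjusted p = 0.00716). The median slope of the list was -0.16, and -0.03 without replicates 9 and 12, with 13 of 33 slopes positive. Of the fibrillar collagens, Col1a1 stood at 6370, 6276, 8237, 10582, 7499 and 7936 and Col1a2 at 7189, 6882, 7759, 10127, 7336 and 7581. Both were highest in replicate 10 and neither was called with Lor. The 2 genes passed as a pair (r = 0.94, exact permutation p = 0.00278, rho = 1.0, adjusted p = 0.0148, n = 6; r = 0.92 without replicates 8 and 10), whereas Lor and Col1a1 did not (r = 0.15, exact permutation p = 0.778, rho = 0.43, p = 0.419, n = 6; r = 0.03 without replicates 9 and 11). No gene was called with Col1a1 by limma in either direction, with 77 rising and 96 falling at an unadjusted p of at most 0.05, and edgeR also called 0.

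Skeletal muscle genes, which come from the muscle sheet under the skin, fell with Lor in 9 of 27 tested members, and 0 rose. Over all genes 8.0% fell and 6.43% rose. The median slope of the list was -0.27, and -0.09 without replicates 9 and 12, where 10 of 27 slopes were positive. Acta1, skeletal actin, stood at 28728, 23900, 14919, 25572, 32336 and 14515 normalized counts, and its values fell into 2 sets with replicates 9 and 12 low and the other 4 high. For that reason no correlation of Acta1 with Ckm or Adipoq is given. The limma calls with Acta1 rest on the same 2 sets, so a graded relation cannot be told from a difference between them. With Acta1 in place of Lor, limma called 538 genes (4.09%) rising and 529 (4.02%) falling, and 0 in each direction without replicates 9 and 12. The genes of smallest p included Rrad, Twist2, Inhba, Fst and Aplnr among those rising and the epidermal genes Rptn, Hrnr and Casp14 among those falling. The part of muscle content in the calls with Lor, and of epidermal content in those with Acta1, was not tested.

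The receptor gene Csf3r, used as a measure of neutrophils, gave few calls. With it 19 genes (0.144%) rose and 3 (0.0228%) fell. The 5 rising genes of smallest p were Cxcr2, Cd33, Mmp8, Slc2a3 and Ccr1, of which Mmp8, a neutrophil collagenase, stood at 1143, 3129, 525, 1956, 2002 and 507. Arl4d and the glutathione transferase gene Gsta4 fell. Csf3r also split the libraries into 2 sets, so its correlation with S100a8 or Cxcr2 is not given. In the limma calls with Csf3r, too, a graded relation cannot be told from a difference between the sets. The counts of genes called with Csf3r depended on single libraries. They were 708 and 441 without replicate 7, and without replicate 8, 9, 11 or 12 they were 0 in each direction. Lor and Csf3r as a pair had r = -0.83 (exact permutation p = 0.0444, adjusted p = 0.102, rho = -0.83, p = 0.0583, n = 6; r = -0.91 without replicates 9 and 11). This pair was kept because only the values of Lor, its x gene, were checked for 2 sets.

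**Figure D4:**
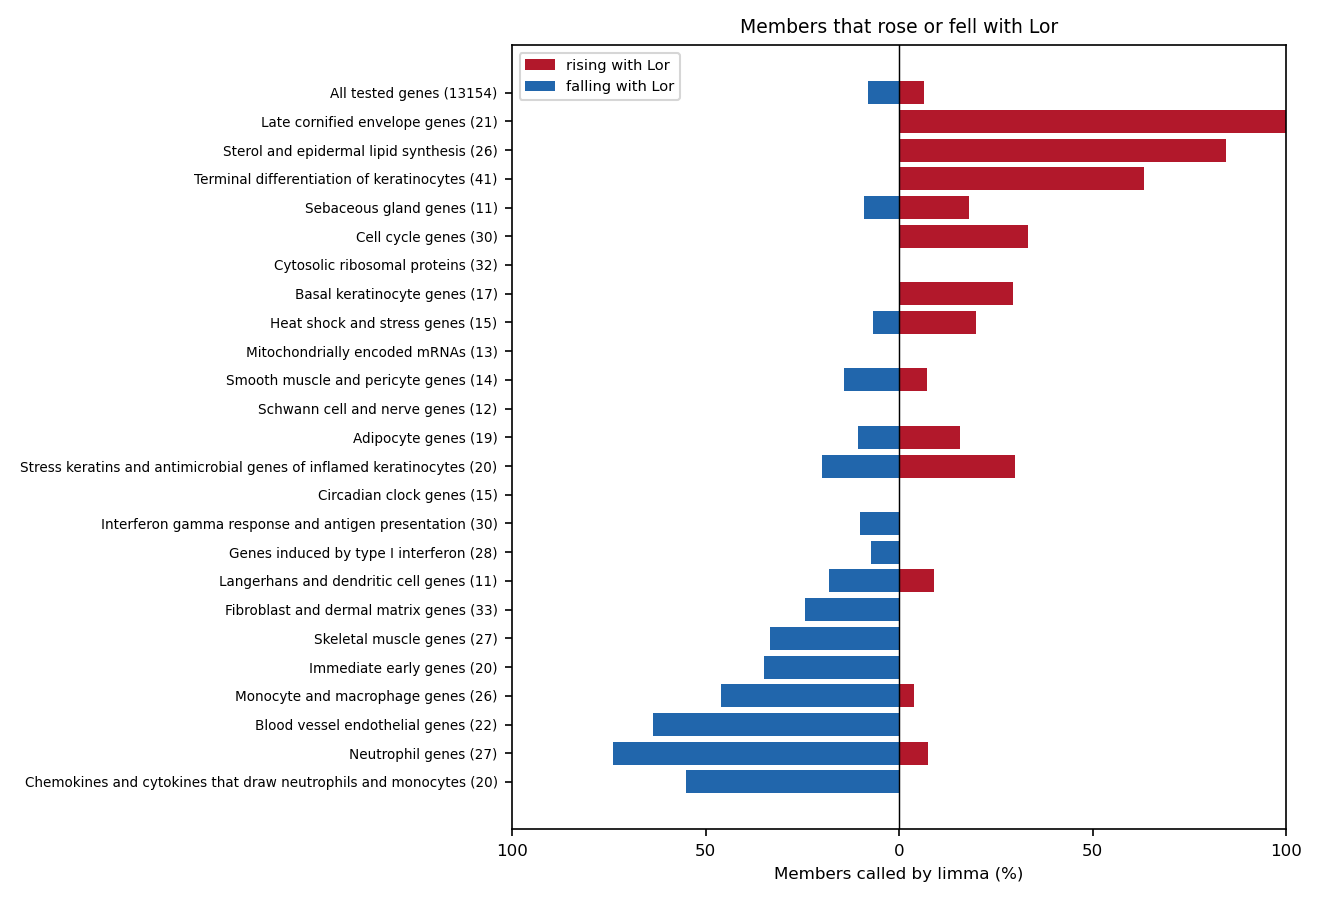
Percent of tested members (horizontal axis) that limma called rising with Lor (right, red) or falling with it (left, blue), for lists with at least 10 tested members; the number of members tested stands in brackets and the top bar gives all tested genes. All 21 late cornified envelope genes rose, and 20 of 27 neutrophil genes and 14 of 22 blood endothelial genes fell, beside 6.43% and 8.0% of all genes.

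Interferon response genes had the smallest spans of the immune lists, taken as the mean level of each list. Gene by gene, the type I interferon members were not the steadiest. Their median SD was 0.39, against 0.38 for mast cell genes, 0.30 for interferon gamma response genes and 0.31 for all genes. Genes induced by type I interferon, the signal that TLR7 triggers in plasmacytoid dendritic cells, spanned 1.35-fold as a list, and of 28 tested members 2 fell with Lor and 0 rose. Isg15 stood at 88.5, 66.5, 37.3, 43.8, 49.8 and 48.6 normalized counts and Irf7 at 191, 137, 133, 135, 141 and 113. That pair had r = 0.74 (exact permutation p = 0.147, adjusted p = 0.214, rho = 0.77, p = 0.103, n = 6) and r = 0.56 without replicates 7 and 12. The list of interferon gamma response and antigen presentation spanned 1.25-fold, and 3 of its 30 tested members fell. Both counts are near the 8.0% of all genes that fell. The median slopes of the 2 lists were -0.10 and -0.08, and -0.04 and -0.02 without replicates 9 and 12. Cxcl9, a chemokine for T cells, was the widest of them at 20.8, 27.7, 8.73, 25.6, 57.3 and 5.55 (slope -0.92 ± 0.15, limma adjusted p = 0.00526).

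Markers of lymphocytes stood at low levels. Only 7 of 25 T cell genes reached the mean of 10, and Cd3e, a chain of the T cell receptor complex, stood at 0.347 to 6.94 normalized counts. Thy1 and Il7r were among those that fell with Lor, and Trbc2 rose. The natural killer list of 7 tested genes was highest in replicate 7 and lowest in replicate 12, with Klrb1c at 19.1, 4.85, 14.3, 18.5, 19.3 and 3.47, and 0 were called with Lor. Of its 7 slopes 0 were positive over the 6 libraries and 7 without replicates 9 and 12. The 7 T cell genes had a median slope of -0.23, and -0.19 without those libraries. Hair shaft keratins such as Krt31 and Krt33b were listed at 0 in all 6 libraries. Of 8 tested hair follicle genes the progenitor genes Lgr6, Sox9 and Lhx2 rose with Lor, and the median slope was 0.34, or 0.12 without replicates 9 and 12.

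**Figure D5:**
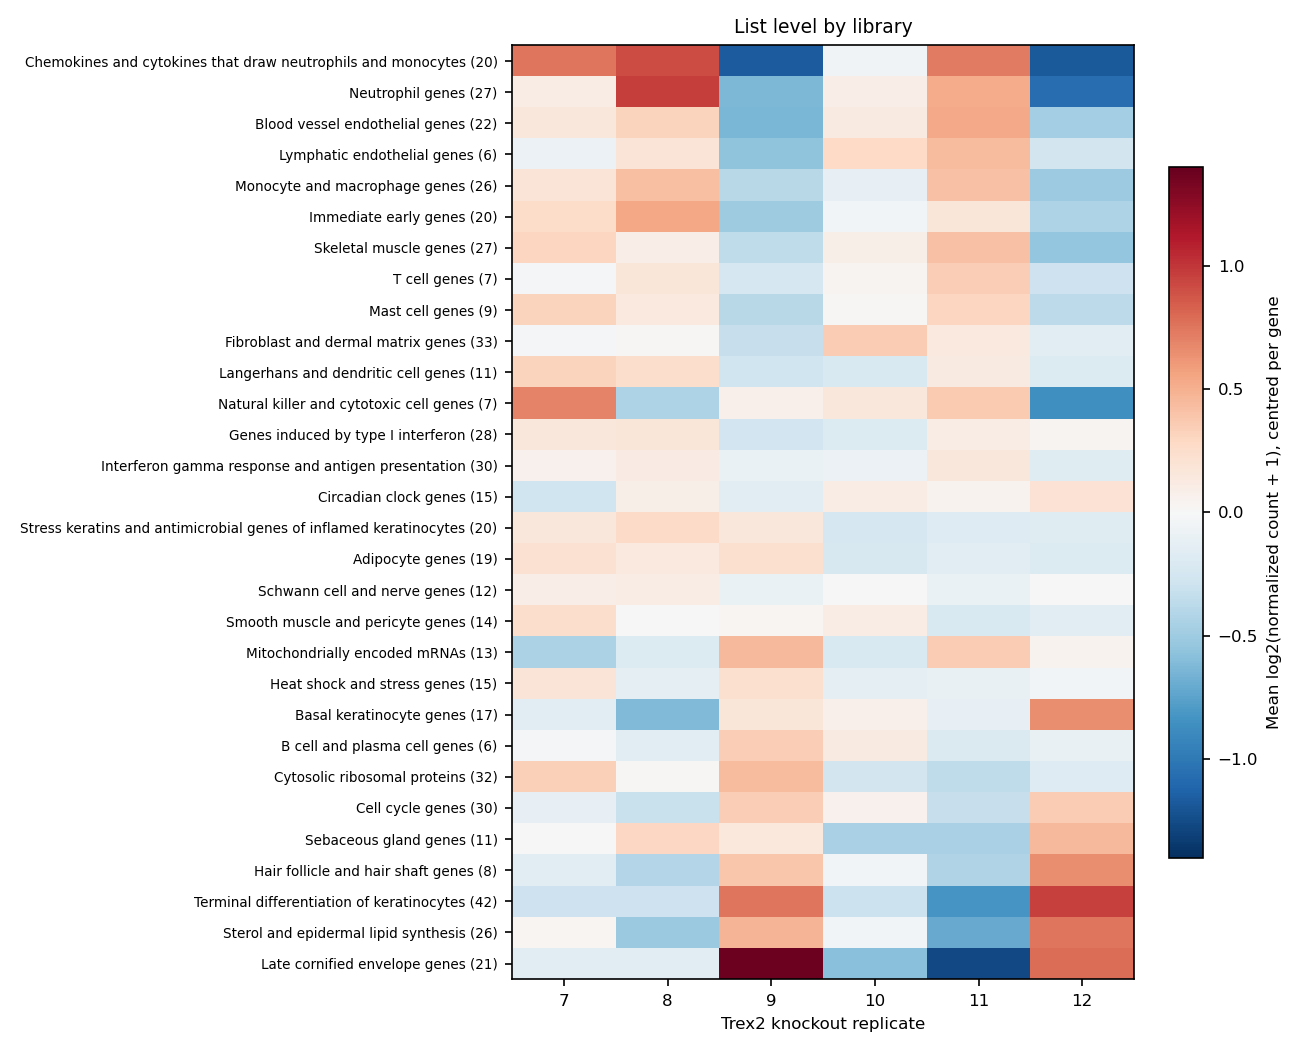
Mean level of each list with at least 5 tested members (rows, number tested in brackets) in knockout replicates 7 to 12 (columns), as log2(normalized count + 1) centred on each gene's mean over the 6 libraries, with red above and blue below 0. Rows run from the most negative to the most positive median slope on Lor; replicates 9 and 12 are lowest in the neutrophil chemokine row and highest in the terminal differentiation row.

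The genes most alike to Lor over the 6 libraries, by smallest limma p among named genes with a mean of at least 50, were Nccrp1, Lce1f, Il1f5, Defb1 and Tmem45b. Il1f5, the antagonist of the interleukin 36 receptor, stood at 479, 349, 1404, 369, 120 and 1234 normalized counts (slope 1.10 ± 0.08, limma adjusted p = 0.000496). Defb1, an antimicrobial defensin, stood at 278, 128, 877, 160, 90.6 and 677. The genes of opposite course with the smallest p were Serpine2, Stc1, Slfn4, Spp1 and Fmo2. Serpine2, a protease inhibitor, stood at 330, 525, 156, 484, 869 and 238 (slope -0.75 ± 0.06, limma adjusted p = 0.000592).

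The letters searched in the promoters stood in a larger share of both groups of called genes than of all tested genes. TATAAA in the last 60 bases before the start, on either strand, was found in 37 of 604 promoters of rising genes (6.13%), in 48 of 765 of falling genes (6.27%), in 247 of 9684 of all tested genes (2.55%) and in 1137 of 27025 of all promoters in the RefSeq table (4.21%). TGANTCA in the 250 bases before the start was found in 9.27%, 7.84%, 5.02% and 6.87% of the same sets. These shares describe letters in a window and were not tested.

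The size of the spread was set against that of the wild-type libraries. The median over genes of the absolute deviation from the group's median was 0.188 ± 0.052 on the log2 scale in knockout libraries (SD, n = 6) and 0.171 ± 0.056 in wild-type libraries (SD, n = 5). Replicates 9 and 12 had the largest deviations of the knockout libraries, at 0.266 and 0.228, and wild-type replicate 2 reached 0.244. The difference of 0.017 was within the spread between libraries (exact permutation test, two-sided, p = 0.606), with a 95% interval from -0.059 to 0.092. The genes were chosen by their mean in the knockout libraries alone, so genes high only in wild type had no part. That choice can favour a larger deviation in the knockout libraries, and the groups also differ in size. The wild-type libraries were shallower, at 1208896 to 5853454 reads. With no filter on low counts the difference was 0.073 (exact permutation p = 0.026), and with all libraries thinned to 1208896 reads it was 0.041 (exact permutation p = 0.216).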

How the data were processed

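The deposited table gives a normalized signal per gene symbol and library, a read count that the authors divided by a size factor for each library. The tools named, per the submitters' processing notes, are DESeq2 1.8.1, featureCounts 1.4.6 and TopHat2 2.0.8, with GRCm38 as the build. In what order they ran, on which annotation and with what strand setting is not given in the sources used here. Reads of overlapping or antisense genes therefore cannot be told apart. All values were whole multiples of 1 read (100% within 0.01 of a read), and whole reads were recovered from them. Columns were matched to samples by the replicate number in the titles. Every pair of knockout libraries differed by more than sampling noise, with a chi-square of 15.8 or more per degree of freedom. The series describes the samples as biological replicates.

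Values were analysed as log2(normalized count + 1) for genes with a mean of at least 10 in the knockout libraries. Slopes are on that scale and understate changes of genes at low levels, while the span of a named gene is a ratio of normalized counts. Shares of genes past a span are on the log2(value + 1) scale. A count test was not used as the main test because the values are normalized. Each gene was regressed on log2 of Lor, Csf3r, Col1a1, Acta1 or depth with limma 3.58.1 (R 4.3.3, trended moderated variances), and p-values were adjusted by Benjamini-Hochberg over all genes tested. Correlations of 16 gene pairs used exact permutation over 720 pairings, two-sided, and 4 pairs were given no correlation because their x values fell into 2 sets. edgeR 4.0.16 on recovered reads, pseudocounts of 0.5 and 5, no filter, a mean of at least 50, TMM scaling, thinning to 3125366 reads and leaving out libraries were alternatives. An exact permutation test, two-sided, compared the spread of the genotypes.

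The libraries, the 35 gene lists (709 symbols) and the genes used as measures were chosen with earlier results of these data known. By rule the text names Trex2, the genes of the pairs, the 10 protein-coding genes of highest mean, the 10 of largest SD with a mean of at least 50, the widest and steadiest members of each list, and the 5 genes of smallest p in each direction of each regression. Other genes named were chosen after their values were seen, and not every gene picked by the rule is reported here. Of tested genes 94.2% had a position in GENCODE M21 on GRCm38, an older name was needed for 7 list symbols, and 8 matched no row. Promoters come from RefSeq on GRCm38.p6. On simulated counts for the regression on Lor over 13155 genes, 100% of genes with a slope of 1 per SD were recovered. Of those with a slope of 0.5, 54% were recovered. At either slope 0 were in the wrong direction, and 7 unchanged genes were called. These figures hold for the simulated counts only, and recovery in the knockout libraries was not tested. The labels mention no molecular identifiers, so limits drawn from reads cover counting error only.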

Additional observations from a re-analysis of the deposited data

Results flagged for a closer look

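Of 187 genes and lists examined over the 6 knockout libraries, 9 genes had 1 library far from the rest. The measure was the gap of the highest or lowest library to its nearest neighbour as a share of the whole range, set against Dixon's 95% critical value for 6 samples. Chance flags about 1 in 20, which here would be 9.35. Col1a2, a chain of type I collagen, was highest in replicate 10 with a gap of 0.689 of the range. Slpi, a protease inhibitor of epithelia, was highest in replicate 8 (0.633). Elovl5, a fatty acid elongase, was lowest in replicate 9 (0.638), while the immunoglobulin light chain gene Igkc (0.646) and the noncoding RNA Gas5 (0.645) were highest there. Cd209a (0.685) and Flt3 (0.654), genes of dendritic cells, were highest in replicate 7, and Cdh19, a gene of Schwann cells, was lowest in it (0.648). Actg2, a smooth muscle actin, was lowest in replicate 11 (0.686). Replicate 7 was the shallowest library, and its counts of Cd209a, Flt3 and Cdh19 were 31.2, 17.4 and 3.47.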

How the results depend on the processing

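The median SD of 0.306 was 0.288 with a pseudocount of 5, 0.361 with no filter, 0.280 at a mean of at least 50, 0.241 without replicates 9 and 12, 0.337 on thinned reads, and 0.280 to 0.320 leaving out single libraries. The first component held 36.8% with no filter and 51.9% to 64.9% leaving out single libraries. The difference in spread from wild type, 0.017, was 0.0728 with no filter, past the threshold, and -0.017 to 0.033 leaving out single libraries. It was not run with TMM scaling. Lists spanning more than 1 on the log2 scale numbered 13, 3 without replicates 9 and 12, and 10 to 13 leaving out single libraries. Gene pairs past the threshold numbered 3, 2 with TMM scaling and 5 on thinned reads. They numbered 0 without replicates 9 and 12 and 0 to 0 leaving out single libraries, where fewer pairings exist. Without replicates 9 and 12 too few pairings remain for any pair to pass, so that 0 was fixed in advance. Leaving out single libraries, a pair could pass only if several pairs reached the smallest possible p together. Leaving out single libraries, 137 to 977 genes rose and 34 to 1206 fell with Lor, 0 to 708 and 0 to 441 with Csf3r, 4 to 957 and 27 to 783 with Acta1, and 0 to 0 with Col1a1 and with depth. Acta1 gave 63 and 79 without replicate 11, and 53 and 77 without replicate 12. Without replicates 9 and 12 Lor gave 0 and 0, Acta1 0 and 0, Csf3r 3 and 6, and depth 1 falling gene. With no filter 357 genes rose with Acta1. For Csf3r, 1 gene fell with TMM scaling, 0 rose and 0 fell on thinned reads, and 35 and 10 were called by edgeR. No value reversed in direction past the threshold under the alternatives run. No paired analysis was possible because the knockout and wild-type libraries share no replicate number. The 6 libraries limit all results, and levels under 5.21 normalized counts are fewer than 3 reads in the shallowest library.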

Other observations

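Some of the widest spreads lay in transcripts of no list. AC131780.1, a gene model named after a genomic clone, stood at 59.0, 4443, 20.6, 39.4, 2067 and 41.0 normalized counts in replicates 7 to 12, a 215-fold span. Its widest gap between neighbouring libraries was 5.11 on the log2 scale, the widest of the tested genes, with replicates 8 and 11 high and the other 4 low. It fell with Lor (slope -2.21 ± 0.56 SE, limma adjusted p = 0.0299), and the slope was -3.29 without replicates 9 and 12. Lars2, a mitochondrial leucyl-tRNA synthetase gene, stood at 21068, 1102, 4083, 4120, 3641 and 2633. Mir5105 (21.5 to 555) and Gm15662 (72.8 to 1152) shared its extremes, highest in replicate 7 and lowest in replicate 8. The source of the reads counted for Lars2, Mir5105 and Gm15662 was not tested. Micalcl was listed at 0 in replicate 7 and at 11.1 to 16.7 in the others. The acute phase gene Saa1 stood at 557, 144, 88.1, 108, 181 and 53.4, highest in replicate 7, and Saa2 at 298 there and 29.8 to 56.3 elsewhere.

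Genes of protein synthesis and of mitochondria had courses of their own. The cytosolic ribosomal proteins as a list stood at 0.33, 0.02, 0.45, -0.26, -0.36 and -0.18 on the centred log2 scale, higher in replicates 7 and 9 than in 10, 11 and 12, and 0 of 32 were called with Lor although all 32 slopes were positive. Their median slope was 0.17, and 0.34 without replicates 9 and 12, where all 32 remained positive. The 3 libraries where the list was lowest were also the 3 deepest. Of all tested genes, these 32 among them, limma called 0 rising and 0 falling with depth. The list as a whole was not tested against depth. In the wild-type libraries 2 of the 32 slopes on Lor were positive. The mitochondrially encoded mRNAs were highest in replicate 9 and lowest in replicate 7, and 0 of 13 were called. Of their slopes on Lor 8 of 13 were positive, with a median of 0.04. Without replicates 9 and 12 only 1 of 13 was positive, with a median of -0.48. Immediate early genes, which respond to stress and handling within minutes, fell with Lor in 7 of 20, among them Dusp1 at 1827, 2761, 384, 1169, 1377 and 495 (limma adjusted p = 0.0416). The median slope of that list was -0.30, but 0.01 without replicates 9 and 12, where 11 of 20 slopes were positive.

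Each library was the highest of the 6 for 7.33% (replicate 10) to 25.3% (replicate 12) of genes, where an even share is 16.7%. Replicate 10 was also least often the lowest, at 8.70%, and replicate 9 most often, at 22.7%. The counts that follow stand beside 6.43% of all genes rising and 8.0% falling with Lor, and several of 1 or 2 genes are near those shares. Of fat genes 3 of 19 rose with Lor and 2 fell, and Adipoq stood at 408, 253, 529, 169, 135 and 268. Of 15 circadian genes and 12 Schwann cell genes 0 were called. Schwann cell genes spanned 1.15-fold as a list, the smallest span of those with 5 or more tested members. Heat shock genes had 3 of 15 members rising and 1 falling. Mast cell genes had 2 of 9 falling, dendritic cell genes 2 of 11 falling and 1 rising, sebaceous genes 2 of 11 rising and 1 falling, and smooth muscle genes 1 of 14 rising and 2 falling. B cell and natural killer genes had 0 called. Melanocyte genes had 1 of 4 rising and 1 falling, and erythroid, histone and nuclear noncoding lists, each with 4 or fewer tested members, had 0.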
